A study of Homo sapiens with 16 samples.

Results

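The positions described here come from a transcriptome-wide map of reverse transcription stops in 2 human cell lines. They lie in the first 50 nucleotides of transcripts that the deposited annotation labels protein-coding, outside the ribosomal protein genes. They were chosen by annotation alone: the deposited biotype label is protein-coding and the position is not mitochondrial. The position falls at nucleotides 1 to 50 of the named transcript, and the gene symbol does not begin with RPL or RPS. The biotype label need not be the class of the named transcript itself, as described below. By this rule 48054 of 719918 listed positions were members (6.67%), in 6221 genes. Of these members, 12945 were uridines. The windows at nucleotides 1-10, 11-20 and 21-50 held 11791, 11274 and 24989 of them, and 4166 positions of RPL and RPS genes in the same 50 nucleotides were set aside for comparison.

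The series holds 16 libraries in 8 groups of 2 replicates, deposited as 10 tables of 1 treated library beside its own untreated control. HEK293T (a human embryonic kidney line) and HCT116 (a human colorectal carcinoma line) are taken as wild type. HCT116-shDKC1 carries a short hairpin RNA against DKC1, which encodes the pseudouridine synthase dyskerin, and all of its libraries share that hairpin. The deposited names of the HCT116 and HCT116-shDKC1 data also carry the tag Lacz, whose meaning was not established here. Libraries were made from fragmented polyadenylated RNA under 3 treatments. CMC- libraries had no carbodiimide and are labelled RA3+, DA3+. CMC+ libraries were treated with the carbodiimide CMC and carry the same adapter labels. CMC+Ter libraries had CMC and Terminator, and their labels add AP5+ in both lines, RE+ in HEK293T and XhoI in the HCT116 lines; the effect of Terminator cannot be told apart from these further steps. HEK293T and HCT116 have all 3 groups and HCT116-shDKC1 has CMC- and CMC+Ter. The labels do not say that replicates came from separate cultures, so p-values measure the spread between these libraries, which may be technical.

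CMC forms a stable adduct with pseudouridine, and reverse transcriptase halts next to the adduct, so a modified uridine appears as a stop over many reads. Reverse transcriptase also halts at the end of every RNA fragment. Terminator degrades RNA whose 5′ end carries a monophosphate, whereas the capped first nucleotide of an mRNA resists it. The first nucleotides of an mRNA are therefore where the cap, the natural end of the template and the 5′ untranslated region (UTR) meet.

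The sequences that carry the comparisons are shown first, each 5′ to 3′ in DNA letters from the hg38 genome with the listed position in capitals; they are cut short where the transcript begins. The first set gives positions near the annotated start whose coverage changed in CMC+Ter, by less than 2 times at EEF1A1.
MIF nucleotide 5: agtgGtgtccgagaa
ATP5ME nucleotide 6: gtgctTccggtgcgga
CCT8 nucleotide 8: ctccgcgGtcttccgagc
UQCRQ nucleotide 3: gaAcgagtcaacc
NACA nucleotide 7: ctgccgCcatcttggtt
RACK1 nucleotide 6: ttttcTctctctcttt
EEF1A1 nucleotide 5: gtttGccgccagaac

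The second set gives positions that the rule admits because a short transcript begins inside the coding sequence of the gene's main transcript, and positions whose share of stops rose or that rose with CMC alone.
MIF nucleotide 44, coding sequence: gttcatcgtaAacaccaacgt
EIF4G1 nucleotide 47, coding sequence: atccgctttaTgctgcaggac
HMGB1 nucleotide 41, coding sequence: aggatcccaaTgcacccaaga
SRM nucleotide 32, coding sequence: gctgtgcagcAagaacccgag
ACTB nucleotide 45, 5′ UTR: cctttgccgaTccgccgcccg
PSMA7 nucleotide 50, 5′ UTR: gtgtgcgcttTtgagagtcgc
EIF5 nucleotide 48, 5′ UTR: cggcgttgttCagtcagagcg

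Library totals behind the deposited RPM values ran from 8653044 to 31261774 reads. Every listed position had at least 5 stop reads in the treated library, and no member was listed below nucleotide 3. A listed position also had a stop ratio in the treated library at or above that of its own control, so a higher share of stops in CMC+ or CMC+Ter than in CMC- is set by the listing and is given as a description. The tables of HCT116 CMC+ count fractions of reads, whereas those of HCT116 CMC+Ter hold whole reads, so each library was compared with the control of its own table. No label names the control library of the HCT116 CMC+ tables, so each was scaled to its treated library by covering reads summed over all listed positions, and ratios there are relative to that sum. Tests used only positions listed in every table of a line. These were 435 members in 270 genes in HEK293T and 289 members in 239 genes in the HCT116 lines, and neighbouring positions of a gene share reads. No DKC1 position was listed in all HCT116 tables, so the knockdown could not be tested there. At chrX:154762871 of DKC1, nucleotide 19, coverage in CPM (covering reads per 1000000 reads of the library total) was 0.293 and 0.352 in HCT116 CMC- and 0.169 in the single HCT116-shDKC1 CMC- library that listed it. Epithelial keratin KRT8 had 89 listed positions in the HCT116 fit, and EPCAM and CDH1 had none.

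The rule reads the transcript named in each table, which is often a minor one. The transcript ID and version were in GENCODE 29 for 85.2% of members, and base and nucleotide number matched for all of those. Of the matched members, 49.3% lay on a transcript classed as protein-coding and 22.6% on one classed as a retained intron. Set on the principal transcript of each gene, 15341 members (31.9%) were in its own first 50 nucleotides, 17217 (35.8%) further along its 5′ UTR, 3394 (7.06%) upstream of its start and 11217 (23.3%) in its coding sequence. The 5′ UTR and upstream positions are treated together below, since the annotated start of a gene can move between releases. Members were rich in C, which made up 13.9% of HEK293T mRNA positions beyond nucleotide 100. At nucleotides 1-10, 11-20 and 21-50 it made up 31.5%, 37.5% and 25.2% of HEK293T members. U was still the commonest base in HEK293T, at 41.8% of members and 47.0% beyond nucleotide 100. GC content around all 435 members was 65.8% against 58.7%. The HCT116 members were 37.4% C and 25.3% U, against 16.9% and 40.5% beyond nucleotide 100.

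Coverage of the first 50 nucleotides was higher than in the control in all 6 Terminator libraries. Over all members of its own table, coverage in CPM in HCT116 CMC+Ter was 2.79 and 2.30 times the control in replicates 1 and 2. The ratios were 2.65 and 2.85 in HCT116-shDKC1 CMC+Ter and 1.91 and 1.78 in HEK293T CMC+Ter. CMC alone gave 0.938 and 0.896 in HEK293T and 1.07 and 1.07 in HCT116. The lowest Terminator ratio therefore lay above the highest ratio without Terminator.

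The rise was graded along the transcript. In HCT116 CMC+Ter replicate 1 the ratio was 3.76 at nucleotides 1-10, 3.29 at 11-20, 2.27 at 21-50, 1.05 at 51-100 and 0.704 beyond nucleotide 100. Replicate 2 gave 3.27, 2.70, 1.85, 0.962 and 0.641. HEK293T CMC+Ter fell from 2.15 and 2.10 at nucleotides 1-10 to 1.78 and 1.62 at 21-50 and to 1.21 and 1.05 beyond nucleotide 100. In both lines the ratio fell from each window to the next, and in HCT116 it ended below 1. The ratio was lower at U than at other bases over nucleotides 1-50 in all 6 Terminator libraries: 2.61 and 2.14 against 2.86 and 2.37 in HCT116, 2.44 and 2.71 against 2.73 and 2.90 in HCT116-shDKC1, and 1.79 and 1.69 against 1.96 and 1.82 in HEK293T. This difference between bases was not tested.

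**Figure D1:**
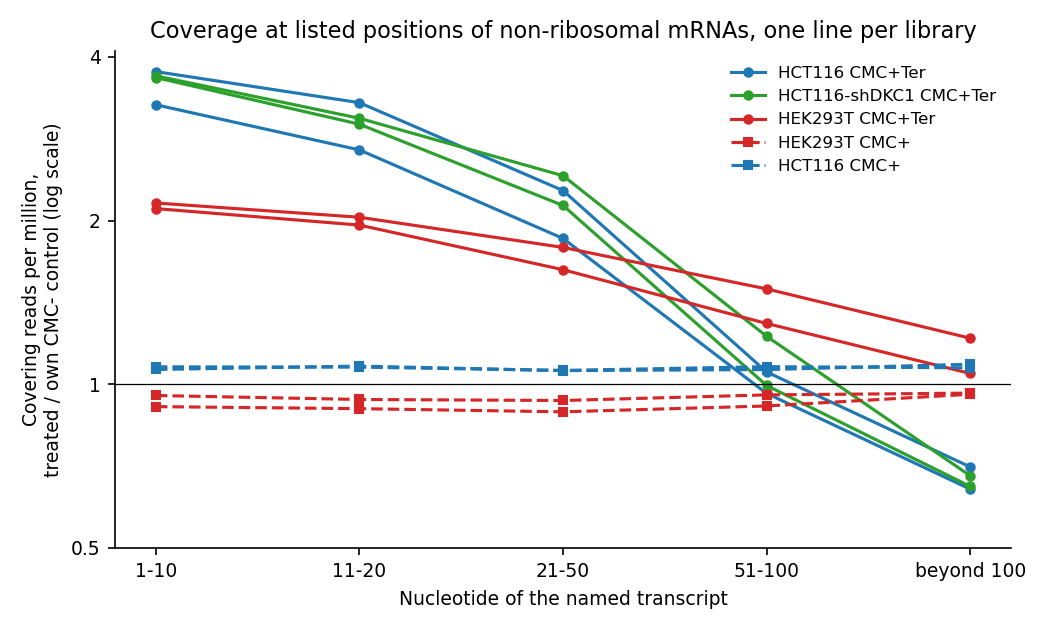
Coverage in CPM in each treated library divided by that in its own CMC- control (log axis), by nucleotide window of the named transcript, pooled over the positions each table lists; solid lines are CMC+Ter and dashed lines CMC+, one line per library. All 6 Terminator lines start between 2.10 and 3.76 at nucleotides 1-10 and fall along the transcript, and the 4 lines without Terminator stay near 1.

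The control reads behind these ratios were few in the HCT116 lines. The median member at nucleotides 1-10 had 11 covering reads in the control of the Terminator tables. Where only members with at least 50 control reads were kept, the ratio over nucleotides 1-50 was 1.90 and 1.65 in HCT116 CMC+Ter, 1.76 and 2.06 in HCT116-shDKC1 CMC+Ter and 1.74 and 1.58 in HEK293T CMC+Ter. Ribosomal protein mRNAs rose less at nucleotides 1-50, with ratios of 1.37 and 1.10 in HCT116 CMC+Ter and 1.49 and 1.30 in HEK293T CMC+Ter; this difference between gene classes was not tested.

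In HEK293T, CMC+ and CMC+Ter are both treated libraries that meet the same listing rule, so CMC is common to both and Terminator differs together with the AP5+ and RE+ steps. Mean coverage of the 435 members was 10.6 and 12.1 CPM in CMC+Ter, 5.90 and 6.80 in CMC+ and 6.41 and 7.97 in CMC-. The CMC+Ter libraries lay above all others, and CMC+ overlapped CMC-. Against CMC+, coverage rose at 229 of 435 members and fell at 0, with a median log2 change of 1.03, by edgeR's quasi-likelihood test with Benjamini-Hochberg adjustment over all positions and a fold of at least 2. Of all 21259 positions tested, 8.44% rose and 0.635% fell, and the median was 0.25. Both CMC+Ter libraries lay above both CMC+ libraries at 375 members (86.2%), against 45.1% of all positions. Scaling by TMM instead moved the median of all positions to -0.03 and left 117 members called.

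Place in the gene divided the members. Coverage rose at 65 of 89 members at nucleotides 1-10, 59 of 88 at 11-20 and 105 of 258 at 21-50. By annotation of the principal transcript, it rose at 220 of 351 members in the 5′ UTR or upstream (median log2 1.11) and at 7 of 78 in the coding sequence (median 0.32). Beyond nucleotide 100 of their transcripts, 215 of 7790 mRNA positions rose, and 44 of 205 did in the first 50 nucleotides of RPL and RPS genes. Against CMC-, 158 of 435 members rose in CMC+Ter with a median of 0.83, where 2.55% of all positions rose and 0.776% fell. The comparisons of CMC+Ter and CMC+ with each other and with CMC- share libraries and are not independent.

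CMC alone did not move coverage past the threshold. Between CMC+ and CMC-, edgeR called 0 of 435 members (0.0141% of all positions rose and 0.0047% fell). At an unadjusted p under 0.05 there were 0 higher and 73 lower members, and DESeq2 also called 0. Both CMC+ libraries lay below both CMC- libraries at 133 members (30.6%), against 10.5% of all positions. They lay above at 19 members (4.37%), against 2.24% of all positions. The median was -0.17 for the members and -0.15 for all positions.

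MIF, a secreted cytokine, shows both kinds of place. At chr22:23894387, a G at nucleotide 5 of ENST00000215754.8 in the 5′ UTR, coverage in CPM was 16.9 and 24.0 in CMC+Ter, 8.14 and 9.75 in CMC+ and 7.38 and 9.80 in CMC-. Both Terminator libraries lay above the other 4, and the log2 change from CMC+ was 1.19 (SE 0.13, adjusted p 1.47e-07, edgeR). The other 5′ UTR members of MIF, at nucleotides 7, 33 and 39, also rose, by 1.14 at nucleotide 33 and slightly more at the other two. At chr22:23894493, an A at nucleotide 44 of ENST00000465752.1 that lies in the coding sequence, the levels were 12.5 and 13.2 in CMC+Ter, 12.8 and 16.8 in CMC+ and 13.5 and 19.3 in CMC-. Its groups overlapped, and the log2 change was -0.20 (SE 0.13, adjusted p 0.201).

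RACK1, a scaffold protein on the small ribosomal subunit, had 10 members in HEK293T. At its 6 coding-sequence members the log2 changes from CMC+ to CMC+Ter ran from -0.22 to 0.06, and none passed the test. Its 4 members in the 5′ UTR, at nucleotides 32 to 46 of ENST00000504726.1, changed by 0.41 to 0.65, below the fold of 2 set for a call. At nucleotide 32 (chr5:181243860) coverage in CPM was 23.2 and 27.2 in CMC+Ter, 14.6 and 17.5 in CMC+ and 17.1 and 24.8 in CMC-, so CMC+Ter lay above CMC+ but overlapped CMC-.

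**Figure D2:**
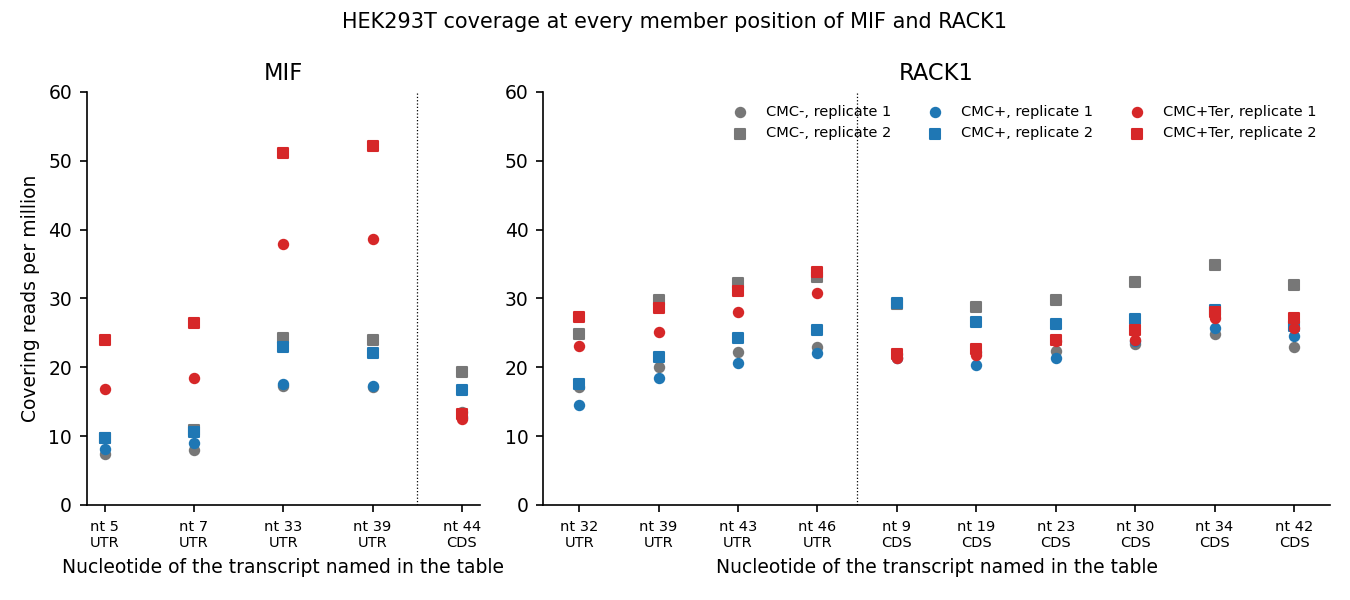
Coverage in CPM in each HEK293T library (circles, replicate 1; squares, replicate 2) at every member position of MIF and RACK1, ordered by place and then by nucleotide of the named transcript; a dotted line divides 5′ UTR from coding-sequence positions. At the 4 MIF 5′ UTR positions both CMC+Ter libraries lie above the rest, and at nucleotide 44 in the coding sequence they do not.

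The 10 genes with the most covering reads at nucleotides 1-50 in HEK293T were TUBA1B, GAPDH, ACTB, ACTG1, RACK1, ENO1, EEF1A1, EIF5A, MIF and HSP90AA1. EIF5A, a translation factor modified with hypusine, had 9 members, all in the 5′ UTR, with log2 changes from CMC+ of 0.99 to 1.49. At its nucleotide 49 (chr17:7307679) coverage in CPM was 38.8 and 44.4 in CMC+Ter against 13.7 and 17.6 in CMC+. ACTG1, cytoplasmic gamma actin, had 42.9 and 54.2 against 19.4 and 18.5 at nucleotide 7 (chr17:81512793), a log2 change of 1.35 (SE 0.11, adjusted p 3.82e-09, edgeR). ENO1, a glycolytic enolase, had 31.2 and 42.6 against 17.2 and 17.9 at nucleotide 11 (chr1:8878678). The CMC+Ter libraries lay well above CMC+ at each of these positions.

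Other abundant mRNAs moved less. EEF1A1, the elongation factor that brings aminoacyl-tRNA to the ribosome, had 26.2 and 30.8 CPM at nucleotide 5 (chr6:73521014) in CMC+Ter against 18.8 and 22.5 in CMC+, a log2 change of 0.46 (SE 0.11, adjusted p 0.00134, edgeR). The 6 GAPDH members changed by 0.39 to 0.53 and the 4 ACTB members by 0.69 to 0.99, all below the fold of 2. Actin, tubulin, GAPDH and EEF1A1 have near-identical copies or processed pseudogenes, and how the authors counted reads that match several places is not given in the sources used here.

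Coverage in HCT116 was compared between CMC+Ter and CMC-, so CMC and Terminator enter together. Mean coverage of the 289 members was 3.83 and 3.47 CPM in CMC+Ter and 1.54 and 1.69 in CMC-. In HCT116-shDKC1 it was 3.27 and 3.77 against 1.39 and 1.57. The groups did not overlap in either line. Beyond nucleotide 100 the order was the reverse in HCT116, with 6.53 and 6.52 in CMC+Ter and 9.10 and 10.2 in CMC-. The listing asks for at least 5 stop reads in the treated library, which favours positions with more treated coverage, and its part in the size of this rise was not tested.

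By edgeR, coverage in HCT116 rose at 238 of 288 members tested and fell at 0 (median log2 1.74), where 4.69% of all positions rose, 6.75% fell and the median was -0.34. Only 192 of the 289 members had at least 10 covering reads in every CMC- library of the HCT116 lines. The rest could pass the filter on low counts through the Terminator libraries, where they are high, so calls there are a description. Coverage rose at 64 of 68, 54 of 64 and 120 of 156 members in the 3 windows. By place, 225 of 258 in the 5′ UTR or upstream rose (median 1.79) and 12 of 28 in the coding sequence (median 0.51). In HCT116-shDKC1, 242 members rose and 1 fell, where 4.52% of all positions rose and 7.22% fell. Both CMC+Ter libraries lay above both CMC- libraries at 267 of 289 members in HCT116 (92.4%), against 17.4% of all positions.

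UQCRQ, a subunit of respiratory complex III, had a member at nucleotide 3 (chr5:132866644) with 5.56 and 4.29 CPM in HCT116 CMC+Ter and 0.807 and 0.832 in CMC-. The groups were far apart, with a log2 change of 2.57 (SE 0.22, adjusted p 8.67e-30, edgeR). MIF at nucleotide 12 (chr22:23894394) had 34.0 and 32.0 against 10.0 and 8.86. EZR, which links actin to the plasma membrane, had 16.8 and 14.6 against 3.92 and 4.41 at nucleotide 18 (chr6:158819351). HSPD1, the mitochondrial chaperonin, had 14.8 and 12.9 against 3.45 and 3.93 at nucleotide 4 (chr2:197499837). Each of these rose by between 1.81 and 2.57 on the log2 scale.

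PABPC1, the cytoplasmic poly(A)-binding protein, went the other way. Its 4 members, all in the coding sequence, had log2 changes of -0.91 to -0.68 in HCT116, with adjusted p from 8.07e-09 to 2.10e-05 (edgeR) but less than the fold of 2. At nucleotide 18 of ENST00000517990.5 coverage in CPM was 7.20 and 7.75 in CMC+Ter and 12.4 and 15.8 in CMC-, without overlap. The 10 most covered genes in the HCT116 lines were MIF, MT2A, ACTB, ENO1, PABPC1, EZR, SERF2, HSPD1, AREG and NME2. The metallothionein MT2A changed by 0.41 and 0.34 at its 2 members.

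Each gene can serve as its own reference when coverage at nucleotides 1-50 is divided by coverage beyond nucleotide 100 of the same mRNA. The median of this ratio over 193 HEK293T genes was 1.66 and 1.75 in CMC+Ter, 0.985 and 0.918 in CMC+ and 1.01 and 0.988 in CMC-. Over 89 genes it was 2.15 and 2.13 in HCT116 CMC+Ter and 0.660 and 0.645 in CMC-. HCT116-shDKC1 gave 2.29 and 2.34 against 0.621 and 0.680. In the HCT116 tables without Terminator, 270 genes had medians of 0.919 and 0.941 in CMC+ and 0.944 and 0.970 in their controls. Medians above 1.5 were seen in all 6 Terminator libraries and in no other.

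**Figure D3:**
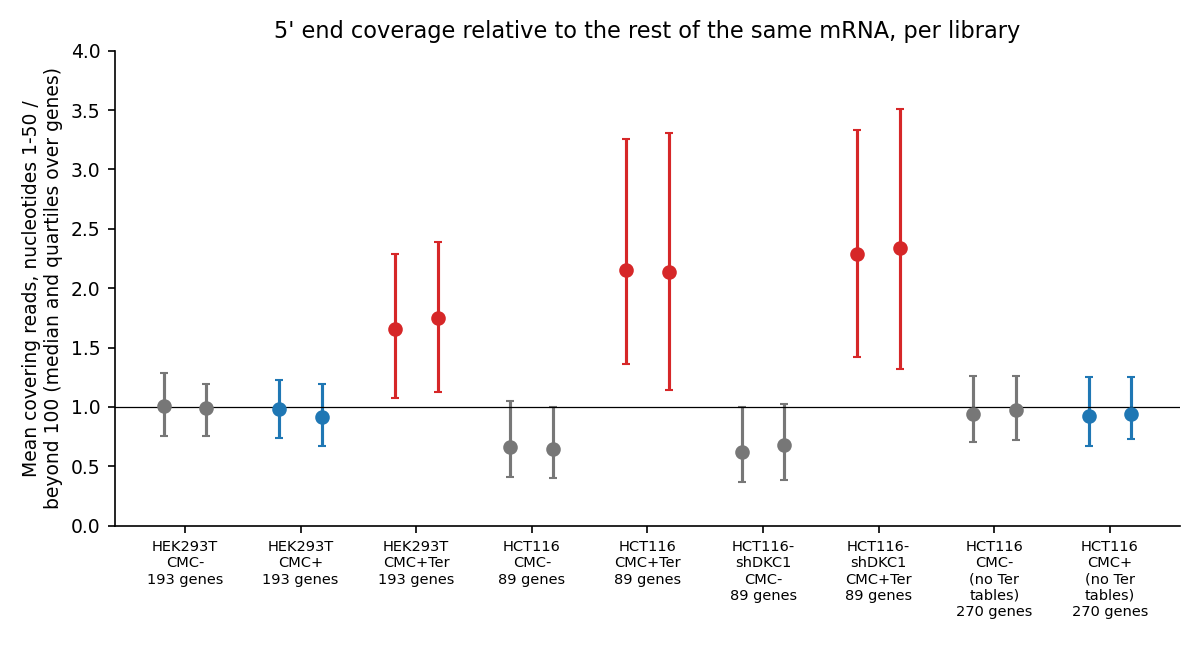
Mean covering reads at nucleotides 1-50 over those beyond nucleotide 100 of the same mRNA; each point is the median over the genes of 1 library and each bar spans the quartiles over genes, with the number of genes under each pair. The CMC+Ter libraries (red) have medians from 1.66 to 2.34, and the CMC- (grey) and CMC+ (blue) libraries from 0.621 to 1.01.

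The ratio rose from CMC+ to CMC+Ter in 149 of 193 HEK293T genes and fell in 3, with a median log2 change of 0.93, by edgeR with Benjamini-Hochberg adjustment and no fold minimum. Of all 262 genes tested, RPL and RPS genes included, 78.2% rose, so the members' share is near that of all genes. It rose in 78 and fell in 1 of 89 genes in HCT116 CMC+Ter against CMC- (median 1.86; 84.7% of 124 genes tested), and in 79 with 2 falls in HCT116-shDKC1 (median 1.95; 85.5% rose and 2.42% fell). The listing favours 5′ end positions with high Terminator coverage, and genes could pass the filter on low counts through that coverage. Counts and named genes of this ratio in the HCT116 lines, here and below, are therefore a description. CMC alone against CMC- in HEK293T changed 0 of 193 genes, with 8 at an unadjusted p under 0.05. A scaling that centres the columns of the 5′ end and the body separately, as DESeq2's own size factors do, removes a shift shared by all genes and left 5 higher and 12 lower in HEK293T; DESeq2 with library totals called 133 higher and 2 lower.

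The 10 genes with the largest rises in HEK293T included 2 subunits of mitochondrial ATP synthase, 2 nuclear import receptors and 2 proteins of spliceosomal particles. Of these 10, ATP5ME, ATP5PD, SNRPD1, CLTA and SNRPA each had only 1 listed position at the 5′ end and 1 in the body. KPNA2, an importin alpha, had a 5′ end to body ratio of 1.54 and 1.93 in CMC+Ter and 0.373 and 0.387 in CMC+, a log2 change of 2.20 (SE 0.28, adjusted p 3.61e-07, edgeR). For ATP5ME of ATP synthase the ratio was 2.35 and 3.22 against 0.717 and 0.630 (log2 2.04, SE 0.18). CCT8, a subunit of the cytosolic chaperonin, had 4.04 and 4.14 against 1.21 and 0.952 (log2 1.95, SE 0.21). All 3 genes had Terminator libraries far above CMC+. The others were ATP5PD at 2.03, the importin IPO5 at 1.97, the Sm protein SNRPD1 at 1.95, clathrin light chain CLTA at 1.93, the U1 particle protein SNRPA at 1.92, the histone chaperone NAP1L1 at 1.90 and the initiation factor EIF4B at 1.84.

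The genes whose ratio fell had their members in the coding sequence. CDKN2A, which encodes cell cycle inhibitors, had a ratio of 0.318 and 0.293 in CMC+Ter and 0.535 and 0.618 in CMC+ (log2 -0.94, SE 0.14, adjusted p 3.46e-06, edgeR). Its covering reads at the 5′ end were 76.65 and 79.3 in CMC+Ter and 63.4 and 108 in CMC+, which overlapped. In its body they were 241 and 271 against 118 and 175. The ratio of the interleukin receptor kinase IRAK1 fell by 0.85 and that of the zinc finger protein MAZ by 0.47 on the log2 scale. In both, 5′ end reads overlapped between CMC+Ter and CMC+, and body reads were higher in CMC+Ter. Restricting the 5′ end to the 5′ UTR and upstream gave 146 of 159 genes higher and 0 lower, and restricting it to the coding sequence gave 12 higher and 6 lower of 46.

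In HCT116 the largest rise was in UQCRQ, with a ratio of 7.35 and 3.81 in CMC+Ter and 0.407 and 0.565 in CMC- (log2 3.42, SE 0.34, adjusted p 1.68e-07, edgeR). NACA, which binds nascent chains at the ribosome, had 4.36 and 4.17 against 0.638 and 0.623 (log2 2.75, SE 0.16). RACK1 had 0.676 and 0.675 against 0.106 and 0.0939 (log2 2.77, SE 0.19). Its single HCT116 member was nucleotide 6, in the 5′ UTR, whereas 6 of its 10 HEK293T members were in the coding sequence. The remaining genes were HLA-C at 3.05, the ADP/ATP carrier SLC25A5 at 2.99, the protease CTSB at 2.94, the DNA end-binding protein XRCC6 at 2.82, the membrane protein DCBLD2 at 2.72, the chromatin protein HMGB2 at 2.68 and the cytochrome CYB5B at 2.64. UQCRQ, HLA-C, SLC25A5, CTSB and HMGB2 each had only 1 listed position at the 5′ end and 1 in the body. HLA-C shares sequence with other HLA class I genes, and its 5′ end had 9 and 4 covering reads in HCT116 CMC-. MZT2B, a partner of gamma-tubulin, fell by 0.84 with both members in the coding sequence, and its reads cannot be separated from those of its near-identical copy MZT2A.

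The gene groups fixed for description were then counted; in HEK293T NPM1 stands in 2 of them. Their counts are to be read against all member genes. From CMC+ to CMC+Ter, 149 of 193 rose in HEK293T (median 0.93). From CMC- to CMC+Ter, 78 of 89 rose in HCT116 (median 1.86), so the lists compare unlike contrasts in the 2 lines. The HCT116 list counts are a description, for the reason given with the ratio above. Among mRNAs with a 5′ terminal oligopyrimidine (TOP) tract outside the RPL and RPS genes, 8 of 11 rose in HEK293T (median 0.75) and 10 of 11 in HCT116 (median 2.03). EEF2, the translocase, changed by 0.69 and TPT1 by 1.12 in HEK293T; EEF1G at 0.22, NOP53 at -0.26 and RACK1 at 0.14 did not pass. In HCT116, PABPC1 at -0.23 was the only member of the list that did not pass. Nuclear-encoded subunits of oxidative phosphorylation rose in 16 of 17 genes in HEK293T (median 1.36), led by ATP5ME, with COX8A at -0.18 not passing, and in 2 of 2 in HCT116 (COX4I1 at 2.59 and UQCRQ at 3.42).

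Against those shares, chaperone mRNAs rose in 10 of 10 genes in HEK293T (median 1.06), from HSP90AB1 at 0.61 to CCT8 at 1.95, and in 3 of 3 in HCT116 (median 1.88). Glycolytic mRNAs rose in 5 of 6 (median 0.89), among them LDHA at 1.06 and PGK1 at 1.13, with GAPDH at 0.25 not passing. For cytoskeletal proteins the count was 5 of 6 (median 0.60), with CFL1, which severs actin filaments, at 1.12 and TUBA1C at -0.28 not passing. RNA-binding hnRNP and SR proteins rose in 5 of 7 (median 0.74), with HNRNPM at -0.45 and SRSF9 at 0.22 not passing, and in 5 of 5 in HCT116 (median 1.88). Of proteasome and ubiquitin mRNAs 1 of 2 rose in HEK293T, UBB at 0.35, with PSMB4 at 0.32 not passing. Nucleolar protein mRNAs rose in 3 of 3 (FBL, NCL and NPM1; median 0.93) and in 1 of 1 (NCL at 0.95), and 1 histone mRNA, H3F3B, rose by 0.61 in HEK293T. Against CMC- in HEK293T, 145 of 193 member genes rose. There UBB, H3F3B and UQCRC1, an oxidative phosphorylation gene, did not pass, and the other list counts were the same. These lists were not tested against other genes.

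The 2 lines shared 37 genes with both a 5′ end and a body, which is 19.2% of the HEK293T genes and 41.6% of the HCT116 genes. Against CMC-, 26 of the 37 rose in both lines, 3 in HEK293T alone and 6 in HCT116 alone, and the lines were not tested against each other. Median log2 changes were 0.77 in HEK293T and 1.75 in HCT116. HSPD1 changed by 1.61 and 2.57, XRCC5 by 1.65 and 2.56, and ENO1 by 0.77 and 1.83. ACTN4 changed by -0.16 in HEK293T and 2.10 in HCT116, and RACK1 by 0.05 and 2.77. Each line used its own listed positions, so values of a shared gene can come from different places in it. RACK1 had 10 members in HEK293T and 1 in HCT116. HMGB1 had the opposite order, with 0.68 in HEK293T and -0.33 in HCT116, the latter not passing.

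HCT116 CMC+Ter could be set beside HCT116 CMC+ only through their own controls, since the tables were made separately, and no test was made. The scales also differ: CMC+Ter and its controls used library totals, and each CMC+ control was scaled to its treated library by summed covering reads. That scaling sets the level of the CMC+ values over all listed positions, so their closeness to no change is partly by construction. Covering reads at members were within 5% between the 2 kinds of control table at 79.0% and 75.3% of 81 positions, so the controls are not independent. This closeness did not hold outside the members. Over all 12648 positions listed in all tables, the control without Terminator had a median of 0.338 and 0.353 times the covering reads of the Terminator table's control. At members the median was 0.988 and 0.989. The effect of this difference on the values beyond nucleotide 100 was not tested. At the 81 members listed in all tables, the pooled log2 change from the own control was 1.09 and 0.84 in CMC+Ter and 0.08 and 0.09 in CMC+. The libraries with Terminator lay above those without. Beyond nucleotide 100 the values were -0.57 and -0.72 against 0.10 and 0.06. At the 71 in the 5′ UTR or upstream they were 1.30 and 1.10 against 0.09 and 0.11. At the 8 in the coding sequence they were 0.10 and -0.25 against 0.08 and 0.05, and there the pooled difference of -0.14 had the opposite sign to the median over positions, 0.90.

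The share of reads that stop, rather than coverage, is the measure of CMC adducts. Pooled over the 435 HEK293T members it was 8.46% and 8.42% in CMC+Ter, 8.94% and 7.66% in CMC+ and 5.74% and 5.09% in CMC-. CMC+Ter lay within the range of CMC+. At U it was 9.52% and 9.15% in CMC+Ter, 9.77% and 8.37% in CMC+ and 6.29% and 5.51% in CMC-. Other bases had 7.83% and 7.97%, 8.39% and 7.21%, and 5.38% and 4.82%. U stood above other bases in every library, CMC- included.

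Stops were most frequent at the start of the transcript. In HEK293T CMC+Ter the share was 10.8% ± 0.18 (SD, n = 2) at nucleotides 1-10, 9.10% ± 0.25 at 11-20 and 7.51% ± 0.072 at 21-50. CMC- had 7.77% ± 0.55, 6.04% ± 0.51 and 4.71% ± 0.41 in the same windows, so the slope was present without CMC. The HCT116 members had 16.7% and 15.7% in CMC+Ter and 8.95% and 8.04% in CMC-, and HCT116-shDKC1 17.5% and 15.0% against 8.82% and 7.66%. Over all members of each table, treated and control shares were 9.57% and 5.93% in HEK293T CMC+ replicate 1 and 13.6% and 7.70% in HCT116 CMC+Ter replicate 1.

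**Figure D4:**
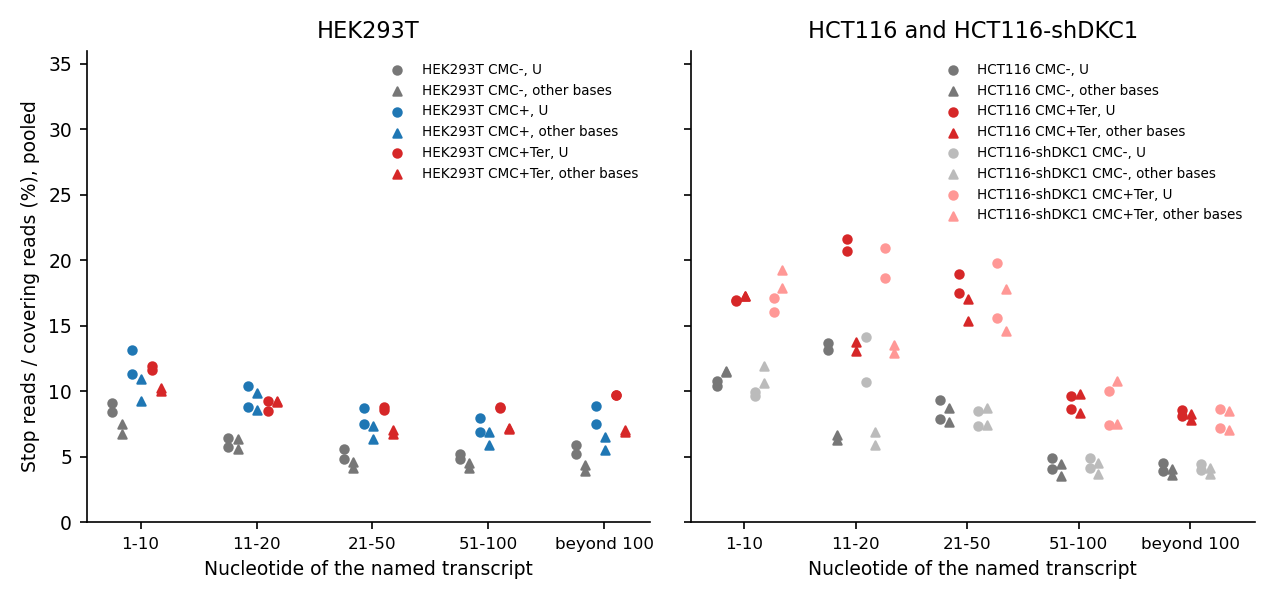
Stop reads as a percentage of covering reads, pooled over positions listed in every table of the line, by nucleotide window; circles are U and triangles other bases, each point is 1 library, and colours give the group. In HEK293T the CMC+ and CMC+Ter libraries overlap at nucleotides 1-50 and lie above CMC-; the listing sets the direction of treated against CMC-.

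Tests of stop reads against coverage found few members. From CMC+ to CMC+Ter in HEK293T, edgeR called 0 of 307 members higher and 0 lower (0.897% of all positions rose and 0.00675% fell). Without adjustment 4 were higher and 1 lower at p under 0.05; DESeq2 called 0. The median was -0.08 for the members and 0.22 for all positions. Stop reads alone rose at 138 of these 307 (23.6% of all positions rose and 0.121% fell), but 152 of the 307 passed the filter on low counts only through the Terminator libraries, so this count supports nothing. Stop reads rose at 233 of the 307 from CMC- to CMC+Ter (33.4% rose and 0.0135% fell), at 183 of 197 in HCT116 (26% and 0.0803%) and at 189 of 197 in HCT116-shDKC1 (24.3% and 0.176%), directions that the listing favours. CMC+ against CMC- gave 0 of 307 against coverage (1.41% rose and 0.00675% fell; 20 and 0 members without adjustment; DESeq2 0) and 0 in stop reads (0.465%; 11 and 0; DESeq2 0).

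From CMC- to CMC+Ter, the share of stops rose at 7 of 307 HEK293T members (12.4% of all positions), at 6 of 41 in the coding sequence (median log2 0.80) and 1 of 263 in the 5′ UTR or upstream (median 0.43). Beyond nucleotide 100, 708 of 3963 mRNA positions rose (median 0.77). In HCT116 it rose at 6 of 197 (24.8% of all positions): 5 of 14 in the coding sequence (median 0.93) and 1 of 183 elsewhere in the 5′ UTR or upstream, with 1309 of 3180 beyond nucleotide 100 (median 0.90). HCT116-shDKC1 had 15 of 197 (19.5%). Coding-sequence members thus had medians close to those of positions further along mRNAs, and these sets were not tested against each other. DESeq2 called 0 members in all 3 comparisons. In the HCT116 lines only 18 of the 197 passed the filter without Terminator libraries, and at 165 no CMC- library reached 10 stop reads.

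**Figure D5:**
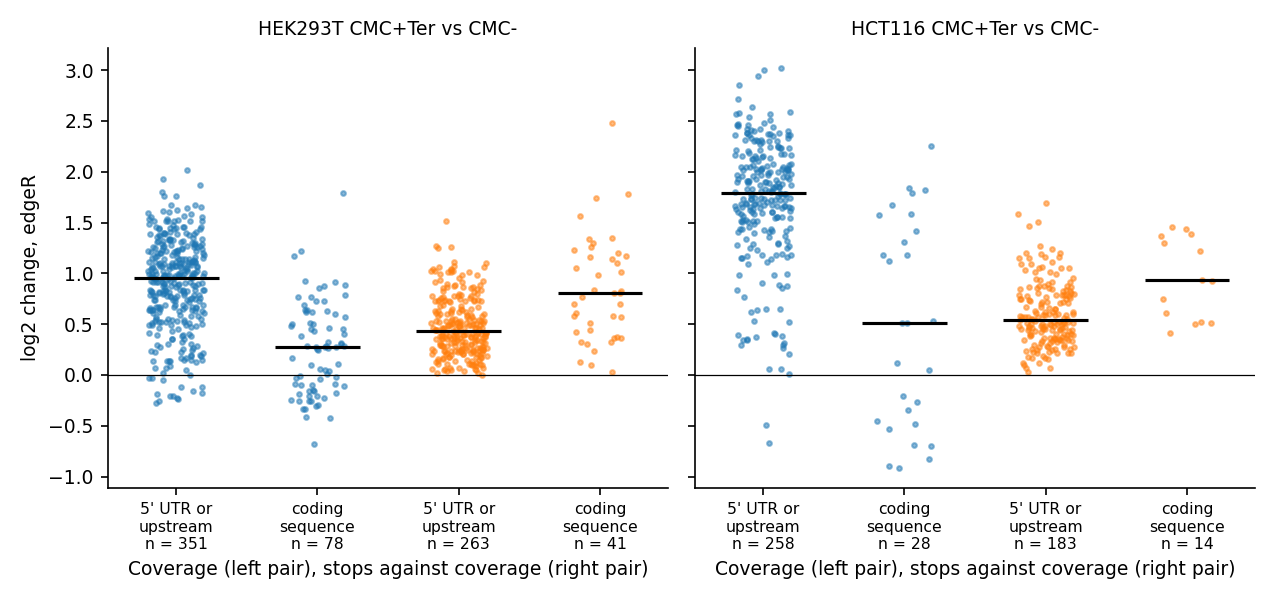
Log2 change from CMC- to CMC+Ter by edgeR at each member, in coverage (blue) and in stops against coverage (orange), divided by place on the principal transcript, with a line at the median; n is the number of positions. Coverage rose more in the 5′ UTR or upstream (medians 0.96 in HEK293T and 1.79 in HCT116) than in the coding sequence (0.27 and 0.51), and the order of the medians of stops against coverage is the reverse.

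The 7 HEK293T positions comprised 5 U and 2 other bases. SRM, which encodes spermidine synthase, had an A at chr1:11055789 with 14.9% and 28.8% stops in CMC+Ter, 10.8% and 7.88% in CMC+ and 4.24% and 3.17% in CMC- (log2 2.48 against CMC-). The initiation scaffold EIF4G1 had a U at chr3:184325345 with 19.4% and 23.3%, 8.67% and 5.49%, and 8.04% and 4.42% (log2 1.78). Only the CANX and HMGB1 sites had at least 10 stop reads in 2 libraries outside CMC+Ter. The other 5 passed the filter on low counts only with the CMC+Ter libraries counted, the group where they are high, so their calls support nothing and their values are a description. At SRM there were 10 and 21 stop reads in CMC+Ter, and at EIF4G1 15 and 20. The change from CMC+ to CMC+Ter passed at 0 of the 7 sites. The remaining positions were CDKN2A U at 1.74, the lectin chaperone CANX U at 1.57, ACTB U at 1.52, the respiratory subunit NDUFB4 A at 1.29 and HMGB1 U at 1.14. ACTB at chr7:5530551 was the single 5′ UTR site, with 4.14% and 4.50% in CMC+Ter and 1.28% and 1.55% in CMC-.

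In HCT116 the positions were PSMA7 U at 1.70 in the 5′ UTR, and MZT2A C at 1.46, MZT2B C at 1.44, EIF4A1 A at 1.39, PABPC1 A at 1.30 and HMGB1 A at 1.22 in the coding sequence. PSMA7, a proteasome subunit, had 26.8% and 18.2% stops in CMC+Ter and 4.55% and 7.89% in CMC-, from 33 to 41 and 22 to 38 covering reads. At PSMA7, MZT2A, MZT2B and EIF4A1 no CMC- library of HCT116 or HCT116-shDKC1 had more than 7 stop reads, and PABPC1 and HMGB1 reached 10 in 1 CMC- library each. All 6 therefore passed the filter only with Terminator libraries counted, so these calls support nothing and the values are a description. The MZT2A and MZT2B positions have the same surrounding sequence and cannot be counted as 2 observations. HMGB1, a chromatin protein, was called in both lines at neighbouring bases: the U at chr13:30463224 in HEK293T, with 24.7% ± 6.1 (SD, n = 2) in CMC+Ter against 11.2% ± 0.51 in CMC-, and the A at chr13:30463225 in HCT116, with 25.9% and 25.6% against 6.67% and 15.2%. The groups did not overlap at either base.

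With CMC alone in HCT116, edgeR called 1 of 234 members in stop reads (0.576% of all positions rose), with 26 higher and 0 lower before adjustment. This was the C at nucleotide 48 of ENST00000559249.5 in the 5′ UTR of EIF5, a translation initiation factor, at chr14:103334236. It had 13 of 23 and 11 of 22 covering reads stopped in CMC+ in the 2 replicates, and 23.1% and 22.6% stopped in the controls, a log2 change of 2.34. It reached 10 stop reads only in the CMC+ libraries and the listing favours this direction, so the call supports nothing. DESeq2 called 0, and the call was lost without the replicate block.

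No member or gene passed the test of a different response to CMC and Terminator in HCT116-shDKC1. The test of the difference between HCT116-shDKC1 and HCT116 called 0 of 197 members in stops against coverage (0% of all positions higher and 0.0115% lower), with 0 before adjustment in either direction, and DESeq2 called 0. In the 5′ end to body ratio it called 0 of 89 genes (0%), with 0 at an unadjusted p under 0.05; the median difference was 0.08 and the range was -0.67 to 1.28. Coverage gave 0 of 288 (0.0033%), with 3 higher and 0 lower before adjustment. A p that misses the threshold does not show that the lines responded alike.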

How the data were processed

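Per the submitters' processing notes, cutadapt 2.8, STAR and the hg38 build were used; how reads matching several places were counted is not given in the sources used here. The deposited tables hold stop and covering reads per position, as whole counts in the HCT116 CMC+Ter tables. In the HEK293T and HCT116 CMC+ tables the deposited values are estimated counts with fractions, made by the authors. Library totals came from the stop RPM values the authors deposited. Members and gene lists were chosen with earlier results of these data known.

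Positions listed in every table of a line, with at least 10 reads in at least 2 libraries, were tested with edgeR 4.0.16 (glmQLFit, glmQLFTest) on rounded counts with library totals as sizes. Calls needed a Benjamini-Hochberg adjusted p under 0.05 and, at positions, a fold of at least 2. Stops against coverage used the log of covering reads as offset. The 5′ end to body test took each gene's mean covering reads, with a mean of at least 10 over columns and library as a block. Replicate number was a block elsewhere, since the series' design text pairs libraries; deviations of same-numbered libraries correlated at 0.135 to 0.412, and at 0.585 in the tables without Terminator. DESeq2 1.42.0, TMM and other filters were alternatives. The tests were checked on simulated data.

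Named genes were, per line, the 10 largest rises and up to 5 falls in the 5′ end to body test, up to 8 U and 8 other positions with the largest called rise against coverage, the 10 most covered genes, and members called with CMC alone or in the interaction; RACK1, MIF, ACTN4, HMGB1 and examples from the lists were also chosen after their values were seen. The 18 other columns of per-sample values were not used.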

Additional observations from a re-analysis of the deposited data

Results flagged for a closer look

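Among 37 shared genes and 6 windows, 3 results moved one way in both HEK293T replicates and the opposite way in both HCT116 replicates from CMC- to CMC+Ter. The difference between the lines was not tested, and chance alone can give such patterns among so many. Each line also used its own listed positions. The log2 change of the HMGB1 5′ end to body ratio was 0.26 and 1.06 in HEK293T and -0.31 and -0.30 in HCT116, a difference of -0.97. For MZT2B it was 0.50 and 0.47 against -0.24 and -1.39, a difference of -1.30. Coverage beyond nucleotide 100, as a log2 ratio to the control, was 0.28 and 0.07 in HEK293T and -0.51 and -0.64 in HCT116, a difference of -0.75.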

How the results depend on the processing

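Of 93 alternatives over 18 results, 64 kept the count within 1.5 times its value or moved by less than the spread, and 29 did not. Rules added after seeing the data were membership in any table, the place of the 5′ end, a minimum of 50 control reads and DESeq2 with library totals. DESeq2 and TMM remove the median shift of all positions: in HEK293T CMC+Ter against CMC+ they left 1 and 10 members in stop reads and 115 and 117 in coverage, where TMM turned the calls over all positions from 1794 higher and 135 lower to 347 and 713. DESeq2 left 7 in HCT116 stop reads and 0 against coverage in HEK293T (CMC+Ter against CMC-), HCT116 and HCT116-shDKC1. Membership in any table gave 1 in HEK293T CMC+ coverage, and 2, 24 and 14 against coverage in HEK293T CMC+Ter against CMC+, against CMC- and in HCT116; without the low-count filter HCT116 gave 10. The 5′ end to body counts in HEK293T, HCT116 and HCT116-shDKC1 were 97 of 112, 35 and 35 of 40 at nucleotides 1-20, 5, 16 and 10 with DESeq2's own size factors, and 12, 3 and 4 in the coding sequence; with 50 control reads the HCT116 lines had 24 and 26 of 30. Fewer genes were tested in all but the DESeq2 settings. The EIF5 call in HCT116 CMC+ became 0 without the replicate block and with DESeq2; HEK293T CMC+Ter against CMC+ gave 1 against coverage without the replicate block, which moved no other count by over 1.5 times. The log2 difference of HCT116 CMC+Ter from CMC+ of 0.88 was 1.59 as a median over positions and 1.25 over each table's own members. The cause was not tested.

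Leaving out 1 library gave, in HEK293T CMC+Ter against CMC+, 24 to 95 in stop reads (24 without CMC+ replicate 2, 31 without CMC+Ter replicate 2, 86 without CMC+Ter replicate 1), 205 to 235 in coverage, 0 to 1 against coverage and 126 to 150 in the 5′ end to body ratio. Against coverage it gave 0 to 8 in HEK293T CMC+Ter against CMC- (0 without CMC- replicate 2, 1 without CMC+Ter replicate 2, 4 without CMC- replicate 1), 0 to 7 in HCT116 (0 without CMC+Ter replicate 2, 1 without CMC- replicate 1, 3 without CMC- replicate 2) and 3 to 7 in HCT116-shDKC1, where the count of 15 became at most 7 without any 1 library. HCT116 had 149 to 170 in stop reads, 221 to 241 in coverage and 74 to 78 in the ratio, HCT116-shDKC1 77 to 80, and the interaction 0. The HCT116 difference ranged from 0.75 to 1.01. Leaving out a library of the HCT116 tables without Terminator left no residual degrees of freedom and was not run.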
